A study of Mus musculus with 12 samples.

Results

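The first day of differentiation was followed in myogenic progenitors that lack emerin, a protein of the inner nuclear membrane whose loss causes Emery-Dreifuss muscular dystrophy in people. The values are those of emerin-null H2K cells, an immortalised mouse myoblast line, at day 0 and at day 1. A gene was a member where the tables of both days carried a tested entry for it and its emerin-null level reached 1 FPKM on at least 1 of these days. FPKM, the fragments of a transcript counted relative to its length and to all mapped fragments, is the unit of every level. This gave 12242 genes of the 12985 with a tested entry at both days, and of the 16836 gene names in the series. The rule used no difference between samples. Each change is the log2 ratio of day 1 over day 0 after adding 0.1 FPKM, with both days brought to the same median ratio.

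Day 0 emerin-null cells had been plated densely for a day in growth medium with 20% serum and with 20 units per ml of interferon-γ. Day 1 emerin-null cells had then spent 1 day in medium with 5% horse serum and without interferon-γ. Wildtype H2K cells were handled the same way and gave the reference for the same step. Each genotype is 1 line, and each sample was made from 3 plates that the deposited values do not separate. The study asked why emerin-null progenitors leave the cell cycle late and differentiate poorly, and the step from day 0 to day 1 covers that exit and the commitment to muscle. H2K cells divide under a heat-labile T antigen that interferon-γ switches on, so the loss of interferon-γ, the drop in serum, the change in carbon dioxide and the passing of a day cannot be told apart in this step. The study's methods also give a lower temperature before the step, while the labels give the same one throughout, so a change in temperature is uncertain.

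Myoblasts that leave the cell cycle switch on myogenin under the control of MyoD, and myogenin with the MEF2 factors then drives the genes of the contractile apparatus. Cyclins, replication factors and the inhibitors of MyoD are shut down at the same time, while inhibitors of the cyclin-dependent kinases hold the cells out of division. Interferon-γ acts, partly through the IRF factors, on guanylate-binding proteins and on the machinery that presents antigens.

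Emd, the emerin gene on chromosome X from 74254687 to 74261548 (GRCm38, plus strand), stood at 0.0859 FPKM in emerin-null and 62.1 in wildtype cells at day 0. At day 1 it stood at 0 in emerin-null against 50.9 FPKM in wildtype cells in the entry of highest level, so the genotype labels held on both days. Emd is not a member, since it did not reach 1 FPKM in emerin-null cells. All 12 markers of the skeletal muscle lineage that were looked for, apart from Chrng at day 0 and Myh3 at day 1, had an entry, and their emerin-null levels summed to 2232 FPKM at day 0 and 3728 at day 1. No endothelial marker reached 1 FPKM on either day. Smooth muscle and pericyte markers summed to 1300 FPKM at day 0 and 2710.0 at day 1. Most of both sums came from Acta2 (794 and 1996 FPKM) and Des (355 and 450), and Des is also among the skeletal muscle markers. Myh11, the defining smooth muscle myosin, was at 0.0898 FPKM at day 1.

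Between the 2 days 1963 of 12200 tested members changed in emerin-null progenitors. Of these 1101 were higher at day 1, which is 9.02% of those tested, and 862 were lower, which is 7.07%. At a plain 2-fold threshold, with no test, 1916 members were higher (15.7%) and 1687 lower (13.8%). Values of single plates were not used here, so no exact test could be run. The standard error (SE) of a change was bounded from above by the SEs that the authors' Cuffdiff statistics gave for the genotype comparisons of both days, and a gene was called at a Benjamini-Hochberg adjusted p below 0.05 in a 2-sided normal test with a change over 1.5-fold. The bound had a median of 0.49 on the log2 scale and was never below 0.37.

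The tables of the 2 days were assembled separately, and a gene can be represented by a different assembled stretch on each day. Of the 251 members whose level moved more than 16-fold, 4 had 1 single entry per table at an unshared locus that overlapped by at least 80% between the days. Such genes are called single-entry genes below. The other 247 included Acyp2, Plcl1, Nebl, Ift88 and Park2, and the level of 190 of the 251 moved more than 16-fold in the same direction in wildtype cells too. Single-entry genes numbered 3834 (31.3% of the members). Of the 3832 tested, 298 were higher at day 1 (7.78%) and 213 lower (5.56%). Single genes are described below mainly from this set, which was chosen after the values had been seen.

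The single-entry genes that rose most included several genes of muscle. Ankrd2, an ankyrin-repeat protein that answers stretch in muscle, stood at 0.427 FPKM at day 0 and 15.5 at day 1 in emerin-null cells, and at 34.1 and 263 in wildtype cells. It rose by 4.97 on the log2 scale (SE at most 0.61, Benjamini-Hochberg adjusted p = 7.64e-14 with the authors' SEs) and still lay far below the wildtype level. Ckb, the brain-type creatine kinase that is also made by young myocytes, went from 19.9 to 286 FPKM in emerin-null and from 20.7 to 214 in wildtype cells. Cdkn1c, which encodes the kinase inhibitor p57, went from 127 to 1169 FPKM in emerin-null and from 36.2 to 173 in wildtype cells, so its emerin-null level was above the wildtype level on both days. Pygm, the muscle glycogen phosphorylase, went from 9.70 to 98.1 FPKM in emerin-null and from 16.01 to 105 in wildtype cells. The calcium-dependent kinase Camk2a went from 1.83 to 17.9 FPKM in emerin-null cells. Pde2a, a phosphodiesterase, Padi2, which turns arginine into citrulline, Pabpn1l, a poly(A)-binding protein, Mafa, a leucine-zipper factor, Smtnl2, a smoothelin-like protein, Ctrb1, a chymotrypsinogen, and Galnt6, a sugar transferase, completed the 12 largest rises, with log2 changes from 3.22 (Galnt6) to 4.35 (Pde2a).

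The single-entry genes that fell most included fatty acid binding proteins, a neurofilament and an interferon factor. Fabp7, a fatty acid binding protein best known from brain, went from 6.64 FPKM at day 0 to 0.206 at day 1 in emerin-null cells and from 5.93 to 0.384 in wildtype cells. Fabp5, its epidermal relative, went from 56.5 to 4.03 FPKM in emerin-null and from 44.8 to 3.37 in wildtype cells. In emerin-null cells Fabp5 fell by 3.69 on the log2 scale (SE at most 0.46, Benjamini-Hochberg adjusted p = 2.57e-13 with the authors' SEs). Nefl, the light neurofilament chain, fell from 5.10 to 0.317 FPKM in emerin-null cells. Irf8, an interferon-regulated factor, fell from 27.4 to 3.08 FPKM in emerin-null and from 24.9 to 2.70 in wildtype cells. Egr2, an early growth response factor, fell from 11.3 to 1.38 FPKM, and Tfap4, an E-box binding factor, from 12.2 to 1.47. Clmp, an adhesion molecule, Gm12250, Rab3b, a small GTPase of vesicle release, AA467197, Adra1b, an adrenergic receptor, and Fam19a5 also fell, with log2 changes of -2.80 (Fam19a5) to -2.97 (Clmp). The calls of Fabp7 and AA467197 did not hold with 1 FPKM added in place of 0.1 (adjusted p = 0.0873 and 0.0564 with the authors' SEs).

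**Figure D1:**
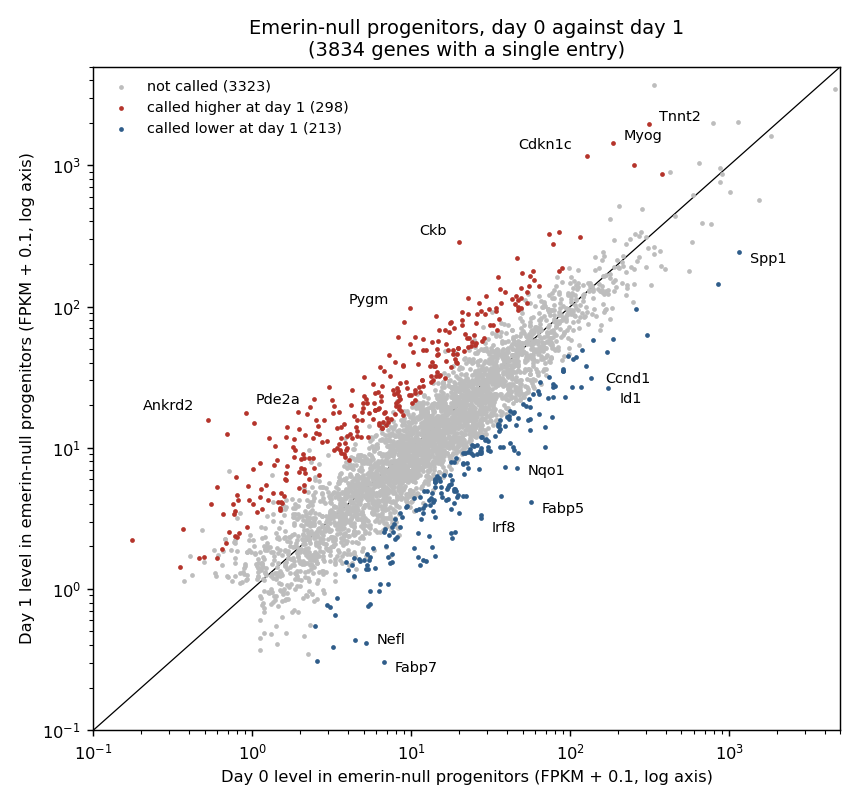
Level of each single-entry gene in emerin-null progenitors at day 0 (horizontal, FPKM plus 0.1, log axis) and day 1 (vertical, same scale), where 1 point is 1 gene and the line marks equal levels. Of 3834 genes, 298 were called higher (red) and 213 lower (blue), and Ckb, Cdkn1c and Myog lie far above the line while Fabp5, Irf8 and Id1 lie far below it.

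Among the factors that determine and execute the muscle programme, myogenin is described first. Myog, which encodes the bHLH factor of terminal differentiation, went from 186 FPKM at day 0 to 1433 at day 1 in emerin-null cells and from 198 to 1370.2 in wildtype cells. It rose by 3.04 on the log2 scale in emerin-null cells (SE at most 0.92, Benjamini-Hochberg adjusted p = 0.00925 with the authors' SEs). Mef2c, a partner of myogenin, went from 21.7 to 63.9 FPKM in emerin-null and from 28.8 to 46.3 in wildtype cells, and Mef2a from 46.6 to 112 FPKM in emerin-null and from 57.6 to 108 in wildtype cells. Both were called in emerin-null and neither in wildtype cells, yet the difference of their changes did not pass (adjusted p = 1 for each with the authors' SEs). Smyd1, a muscle methyltransferase, rose from 35.9 to 134 FPKM in emerin-null cells. Myod1, the determination factor, was at 145 and 330 FPKM and did not pass (adjusted p = 0.110 with the authors' SEs), and a second Myod1 entry at day 0 makes this change uncertain. Myf5, the early determination factor, was at 8.26 and 6.88 FPKM, and Pax7, the factor of satellite cells, at 4.81 and 5.58, and neither passed. In the whole list of 31 measured determination and differentiation factors 6 were higher and 2 lower, with a median change of 0.04 against -0.01 for all members. Its largest called changes were in Hmga2, a chromatin protein of immature cells (log2 change -3.94), Bhlhe40 (3.33) and Csrp3, a muscle LIM protein (3.05), each with more than 1 entry or poorly overlapping loci.

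Some inhibitors of these factors fell. Id1, which binds and blocks the partners of MyoD, went from 173 FPKM to 26.3 in emerin-null and from 183 to 37.3 in wildtype cells. In emerin-null cells Id1 fell by 2.63 on the log2 scale (SE at most 0.42, Benjamini-Hochberg adjusted p = 2.14e-08 with the authors' SEs). Id3, its relative, went from 102 to 32.5 FPKM in emerin-null and from 93.2 to 46.7 in wildtype cells. Twist2, another bHLH inhibitor, fell from 7.77 to 2.15 FPKM. Mstn, which encodes myostatin, a secreted brake on muscle mass, rose from 1.86 to 6.63 FPKM in emerin-null cells and was at 2.96 and 5.70 in wildtype cells. Of 15 measured inhibitors 3 were lower and 2 higher, the second one being Zeb1, whose entries barely overlap. Among all tested members 7.07% were lower and 9.02% higher.

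The contractile apparatus was the group with the most rising genes of all lists examined. Of 56 measured sarcomere genes 38 were higher at day 1 in emerin-null cells and 0 lower, where 9.02% of all tested members were higher. Their median log2 change was 2.01 in emerin-null and 1.36 in wildtype cells, against -0.01 and 0.00 for all members. Among genes alone at their locus 24 were higher. Among the 17 single-entry genes of the list 14 were higher and 0 lower, with medians of 2.09 and 1.41. Tnnt2, the cardiac and embryonic troponin T, went from 311 FPKM to 1946 in emerin-null and from 411 to 2065 in wildtype cells. Tnni1, the slow troponin I, went from 252 to 1007 FPKM in emerin-null and from 352 to 887 in wildtype cells. Actn2, the α-actinin that anchors thin filaments in the Z disc, went from 46.0 to 222 FPKM in emerin-null and from 78.5 to 194 in wildtype cells, a rise of 2.36 on the log2 scale in emerin-null cells (SE at most 0.52, Benjamini-Hochberg adjusted p = 0.000127 with the authors' SEs). In these genes the emerin-null level was below the wildtype level at day 0 and close to it or above it at day 1. Ldb3 and Myoz2, partners of α-actinin in the Z disc, rose from 20.7 to 79.9 and from 7.12 to 45.2 FPKM, and Mybpc1, a myosin-binding protein of slow fibres, from 4.81 to 15.6 against 14.6 and 34.8 in wildtype cells. Trim63, a ubiquitin ligase of the sarcomere, and Smpx, a small stretch-responsive protein, rose by 2.19 and 2.21.

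The largest called changes of the list were in Nebl (log2 change 9.64), Myoz1 (6.98), Tmod4 (5.85) and Actc1 (4.97), and each of them has a shared locus or poorly overlapping entries. Of the 18 sarcomere genes that were not called, Acta1, the skeletal α-actin, had a log2 change of -1.46, but its locus is shared at day 1. Tnnc1, Myl1 and Mylpf had changes of 2.31, 2.22 and 2.07 and SE bounds too wide to pass. Of 11 measured smooth muscle markers 3 were higher (Smtn, Mcam and Lmod1) and 0 lower, beside 9.02% and 7.07% of all tested members. The part of such cells in the result was not tested. Fewer cells of a type and less RNA per cell cannot be told apart in these samples.

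Of the 28 called sarcomere genes with a RefSeq promoter window (250 bases before to 50 after the start), 9 hold CAGCTG, an E-box form that myogenic bHLH factors bind, which is 32.1% against 16.1% of all 27025 windows. The general E-box CANNTG was in 24 of 28 (85.7%) and in 72.1% of all windows, counted on both strands, with CAGCTG among its forms. The window of Tnnt2, the called gene of highest day 1 level that holds the motif alone at its locus, is shown to let its spacing be read (chr1:135836084-135836383, GRCm38.p6, plus strand, RefSeq; CAGCTG in capitals).
Tnnt2: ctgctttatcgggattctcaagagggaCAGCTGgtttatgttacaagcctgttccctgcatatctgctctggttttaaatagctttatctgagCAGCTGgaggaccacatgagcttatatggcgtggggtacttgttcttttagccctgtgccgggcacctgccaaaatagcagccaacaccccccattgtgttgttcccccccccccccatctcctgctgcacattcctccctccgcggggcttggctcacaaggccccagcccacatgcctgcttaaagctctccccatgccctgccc

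Part of the genes of excitation and calcium handling rose as well. Of 27 measured genes 12 were higher and 0 lower, with a median log2 change of 1.28 in emerin-null and 1.11 in wildtype cells. Cacng1, a subunit of the muscle calcium channel, went from 38.8 FPKM to 126 in emerin-null and from 73.2 to 185 in wildtype cells. Jph1, which ties the surface membrane to the calcium store, went from 7.64 to 23.7 FPKM in emerin-null cells, and Stac3, which couples the channel to the release receptor, from 30.6 to 95.1. Ryr1, that receptor, rose from 9.72 to 27.8 FPKM. The largest called changes were in Casq1 (4.61), Camk2a (3.31), Srl (3.16) and Hrc (2.64), of which Camk2a alone is a single-entry gene. Cacna2d1, a channel subunit with 3 entries at day 0, was at 580 and 38.3 FPKM and did not pass. Of 16 genes of the neuromuscular junction 2 were higher, Chrnd and Erbb3, and 1 lower, Chrnb1, beside 9.02% and 7.07% of all tested members.

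Some genes that fasten the sarcomere to the membrane rose. Of 23 genes of the dystrophin complex and the costamere 9 were higher and 0 lower, beside 9.02% and 7.07% of all tested members. The median of the list was 1.03 in emerin-null and 0.69 in wildtype cells. Sntb1, a syntrophin, went from 14.8 FPKM to 67.6 in emerin-null and from 19.2 to 62.4 in wildtype cells, a rise of 2.27 (SE at most 0.41, Benjamini-Hochberg adjusted p = 1.09e-06 with the authors' SEs). Cav3, the muscle caveolin, went from 25.8 to 88.1 FPKM in emerin-null and from 51.7 to 104 in wildtype cells. Sgcd, the δ-sarcoglycan, went from 1.54 to 5.81 FPKM and Dag1, dystroglycan, from 43.0 to 112. Popdc2, a cAMP-binding membrane protein, and Dtna, a dystrobrevin, had changes of 2.81 and 1.98 but have more than 1 entry. Of 36 fusion genes 4 were higher and 4 lower, beside 9.02% and 7.07% of all tested members, with a median of 0.01. Dysf, the membrane repair protein dysferlin, rose from 5.35 to 17.4 FPKM, while Cdon and Cdh2, surface proteins of myoblast contact, fell from 62.3 to 25.3 and from 44.0 to 17.9. Tmem8c, the fusogen myomaker, stood at 172 FPKM at day 0 and 418 at day 1 and did not pass (adjusted p = 0.0545 with the authors' SEs).

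Energy metabolism of muscle gave a mixed list. Of 28 measured genes 8 were higher and 4 lower, beside 9.02% and 7.07% of all tested members. The median of the list was 0.86 in emerin-null and 0.54 in wildtype cells, and among 12 single-entry genes 5 were higher and 0 lower. Besides Ckb and Pygm, Ak1, the adenylate kinase of muscle, went from 55.3 to 165 FPKM in emerin-null cells and Cox6a2, the muscle form of a respiratory subunit, from 8.72 to 38.2. Adssl1, the muscle adenylosuccinate synthase, went from 6.34 to 21.2 FPKM in emerin-null and from 7.41 to 13.7 in wildtype cells. Ckm, the muscle creatine kinase, went from 13.5 to 163 FPKM in emerin-null and from 28.1 to 178 in wildtype cells at a locus shared with another gene. The 4 lower genes were Cox7a1, Mb, Art3 and Lpl, and the first 3 of these share their locus.

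**Figure D2:**
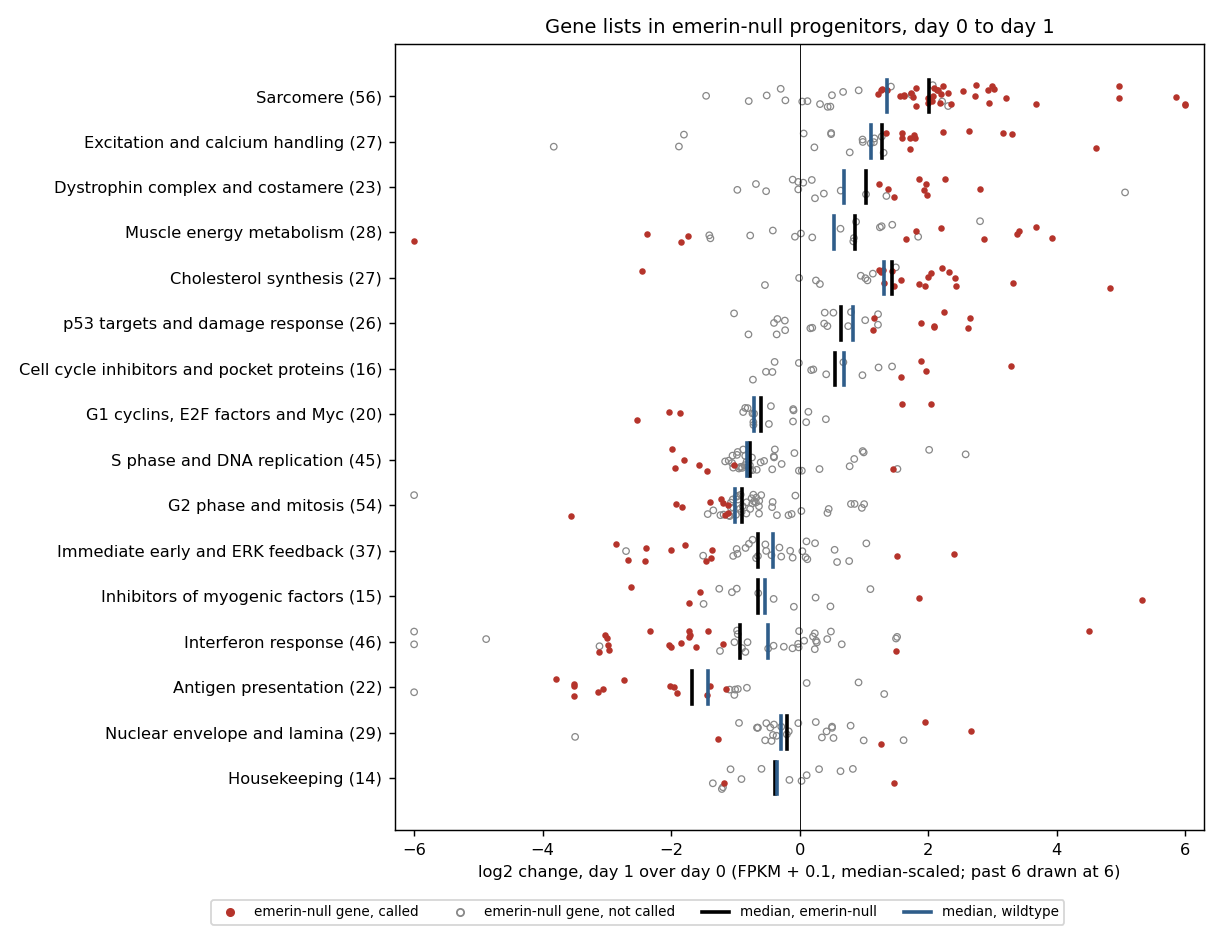
Log2 change from day 0 to day 1 of each measured gene of 16 lists in emerin-null progenitors (1 point per gene, red where called, open grey where not), with the list median in emerin-null (black bar) and wildtype (blue bar) progenitors and the number of measured genes in brackets. The sarcomere median lies at 2.01 in emerin-null and 1.36 in wildtype, and the antigen presentation medians lie at -1.67 and -1.42. Changes past 6 in either direction are drawn at 6.

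Genes of cell division mostly had negative changes, and few of these passed the test. Of 45 measured genes of S phase and DNA replication 6 were lower and 1 higher in emerin-null cells, with a median of -0.77 in emerin-null and -0.82 in wildtype cells. The 6 lower genes are 13.3% of the list, beside 7.07% of all tested members. Of 54 genes of G2 phase and mitosis 9 were lower and 0 higher, with medians of -0.90 and -1.01, and this count was 16 without scaling between the tables and 4 among genes alone at their locus. Cdc6, which loads the replicative helicase, went from 11.7 FPKM to 3.65 in emerin-null and from 11.9 to 2.60 in wildtype cells. Mcm6, a helicase subunit, went from 97.1 to 44.7 FPKM in emerin-null and from 109.8 to 46.1 in wildtype cells. Prim1, the primase, fell from 56.0 to 19.4 FPKM, while Tyms, the thymidylate synthase, rose from 11.6 to 30.1. The largest called falls of the list were in Uhrf1 (-1.99), Cdt1 (-1.95) and Brca1 (-1.79), whose entries overlap poorly or share a locus.

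Mitotic genes of known role were among the called ones. Top2a, the topoisomerase that untangles chromosomes, went from 138 FPKM to 58.0 in emerin-null and from 125 to 46.2 in wildtype cells. In emerin-null cells Top2a fell by 1.16 on the log2 scale (SE at most 0.42, Benjamini-Hochberg adjusted p = 0.0375 with the authors' SEs). Mki67, the marker of cycling cells, went from 60.3 to 15.8 FPKM in emerin-null and from 60.4 to 12.3 in wildtype cells. Cenpf, a kinetochore protein, fell from 14.0 to 5.59 FPKM and Melk, a mitotic kinase, from 27.4 to 11.8. Cenpa, the histone of centromeres, had the largest called change (-3.56), followed by Ncapd2 (-1.92), both with shared or poorly overlapping loci. Cdk1, the mitotic kinase, was at 154 and 68.6 FPKM in emerin-null and at 154 and 58.4 in wildtype cells and passed in wildtype cells only (adjusted p = 0.0962 and 0.0311 with the authors' SEs), and the difference of both changes did not pass (adjusted p = 1). Ccnb1, cyclin B, was at 13.8 and 12.4 FPKM and did not pass, nor did Pcna, the replication clamp, at 19.7 and 14.0.

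Most division genes had a less negative change in emerin-null than in wildtype cells. This held for 38 of 45 genes of S phase (84.4%) and for 44 of 54 of G2 and mitosis (81.5%), where 46.9% of all members had the larger signed change in emerin-null cells. The gaps were small, with a median difference of 0.17 and 0.12 on the log2 scale, and no gene of either list passed the test of the difference. Between day 1 and day 2 the same lists had median changes of -1.34 and -2.26 in emerin-null cells, larger than over the first day.

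Of the 6 called S phase genes 2 hold TTTGGCGC, an E2F element, in their promoter window (33.3% against 0.537% of all windows), and 7 of 8 called mitotic genes with a window hold TTTGAA, the CHR element of late cell cycle genes (87.5% against 18.1%). The CCAAT box was also in 7 of 8 (87.5% against 37.9%). The windows of Mcm6 (chr1:128359656-128359955, minus strand) and Top2a (chr11:99024140-99024439, minus strand) are shown as the called genes of highest day 0 level with the motif alone at their locus (GRCm38.p6, RefSeq). Capitals mark TTTGGCGC in Mcm6 and TTTGAA, with its reverse complement TTCAAA, in Top2a.
Mcm6: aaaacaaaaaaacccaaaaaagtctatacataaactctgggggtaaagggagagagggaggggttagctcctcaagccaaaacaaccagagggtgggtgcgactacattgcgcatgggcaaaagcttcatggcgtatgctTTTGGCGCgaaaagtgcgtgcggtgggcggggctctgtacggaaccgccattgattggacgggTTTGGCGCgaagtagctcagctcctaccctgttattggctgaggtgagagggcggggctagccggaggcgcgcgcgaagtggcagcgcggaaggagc
Top2a: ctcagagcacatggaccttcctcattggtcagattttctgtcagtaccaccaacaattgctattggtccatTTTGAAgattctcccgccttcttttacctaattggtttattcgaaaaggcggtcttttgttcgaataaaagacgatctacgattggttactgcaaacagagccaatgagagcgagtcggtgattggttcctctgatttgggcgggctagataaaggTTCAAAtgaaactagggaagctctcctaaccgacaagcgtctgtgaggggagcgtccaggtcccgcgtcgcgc

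The switches of the G1 phase moved in both directions. Ccnd1, cyclin D1, went from 135 FPKM to 31.1 in emerin-null and from 129 to 38.5 in wildtype cells. In emerin-null cells Ccnd1 fell by 2.03 on the log2 scale (SE at most 0.43, Benjamini-Hochberg adjusted p = 5.21e-05 with the authors' SEs). Myc went from 16.5 to 4.18 FPKM in emerin-null and from 16.4 to 5.99 in wildtype cells, and Cdk6, a kinase partner of cyclin D, fell from 17.4 to 2.76 in emerin-null cells. E2f2 and its partner Tfdp1 rose by 1.60 and 2.04. Ccnd3, the cyclin D that muscle keeps, was at 109 and 95.3 FPKM at a shared locus and did not pass. Of 16 inhibitors of the cycle and pocket proteins 4 were higher and 0 lower, beside 9.02% and 7.07% of all tested members. These were Cdkn1c, Rb1, the retinoblastoma protein (26.9 and 75.4 FPKM, shared locus), Btg2 (14.8 and 51.5) and Tob1 (13.9 and 51.3), the last 2 being antiproliferative proteins of 1 family. Cdkn1a, which encodes the inhibitor p21, was at 99.7 and 254 FPKM in emerin-null and 128 and 289 in wildtype cells and passed in neither (adjusted p = 0.0991 in emerin-null cells with the authors' SEs).

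Some targets of p53 rose. Of 26 measured genes of a list of p53 targets and damage response kinases 8 were called higher and 0 lower in emerin-null cells. The shares of all tested members were 9.02% and 7.07%. Of these 8 genes 6 are single-entry genes, of which the list holds 11. Pmaip1, the death protein Noxa, went from 6.22 FPKM to 37.3 in emerin-null and from 9.48 to 54.5 in wildtype cells, a rise of 2.65 (SE at most 0.40, Benjamini-Hochberg adjusted p = 1.93e-09 with the authors' SEs). Trp53inp1, a p53-induced nuclear protein, went from 10.5 to 61.0 FPKM in emerin-null and from 11.1 to 79.0 in wildtype cells. Ccng1, cyclin G1, went from 84.4 to 337 FPKM in emerin-null and from 87.9 to 401 in wildtype cells. Fas, a death receptor, rose from 2.00 to 8.33 FPKM, and Eda2r, a receptor of the same family, from 15.5 to 69.5.

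Most genes of cholesterol synthesis rose. Of 27 measured genes 17 were higher and 1 lower, beside 9.02% and 7.07% of all tested members. The median of the list was 1.44 in emerin-null and 1.32 in wildtype cells, and of 11 single-entry genes 7 were higher and 0 lower. Hmgcs1, which makes the precursor of mevalonate, went from 27.2 FPKM to 93.1 in emerin-null and from 25.1 to 89.4 in wildtype cells, a rise of 1.86 (SE at most 0.42, Benjamini-Hochberg adjusted p = 0.00017 with the authors' SEs). Sc4mol, a sterol demethylase, went from 22.6 to 115 FPKM in emerin-null and from 21.7 to 131 in wildtype cells, and Sc5d, a sterol desaturase, from 3.67 to 14.5 in emerin-null cells. Emerin-null and wildtype levels of Hmgcs1 and Sc4mol lay close together on both days. Fdps, a prenyl synthase, had the largest called change (4.83), and the 1 lower gene was Acat2 (-2.45), both with shared or poorly overlapping loci. Over the following day the list had a median change of -0.14.

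Of 12 called cholesterol genes with a promoter window 1 holds CACCCCAC, a sterol element (8.33% against 2.77% of all windows), and it is Hmgcs1, whose window is shown for that reason (chr13:119690101-119690400, GRCm38.p6, plus strand, RefSeq; motif in capitals).
Hmgcs1: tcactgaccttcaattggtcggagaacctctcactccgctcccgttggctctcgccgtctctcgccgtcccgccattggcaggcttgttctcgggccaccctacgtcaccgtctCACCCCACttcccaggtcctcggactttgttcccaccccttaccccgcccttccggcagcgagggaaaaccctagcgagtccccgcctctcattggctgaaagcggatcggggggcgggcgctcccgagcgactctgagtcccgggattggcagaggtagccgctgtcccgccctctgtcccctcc

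Part of the interferon-induced genes fell over the day on which interferon-γ was removed. Of 46 measured genes 15 were lower and 2 higher in emerin-null cells, beside 7.07% and 9.02% of all tested members. The median of the list was -0.93 in emerin-null and -0.49 in wildtype cells. Of its 13 single-entry genes 5 were lower and 0 higher, with medians of -0.25 and -0.07. Gbp7, a guanylate-binding protein, went from 68.8 FPKM to 12.8 in emerin-null and from 84.4 to 18.6 in wildtype cells. Cxcl9, a chemokine, went from 2.45 to 0.210 FPKM in emerin-null and from 9.50 to 1.25 in wildtype cells, and its call did not hold with 1 FPKM added in place of 0.1 (adjusted p = 0.173 with the authors' SEs). Irf1, the factor that relays the signal, went from 113 to 39.4 FPKM in emerin-null and from 127 to 52.5 in wildtype cells. The largest called falls besides Irf8 were in Socs1, a feedback inhibitor (-3.12), Ly6a (-2.99) and Gbp2 (-2.98). The 2 higher genes were Isg20 and Ifit1, both at shared loci.

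In the interferon list the median change was lower in emerin-null than in wildtype cells, while no gene of it passed the test of the difference. In 10 of 46 genes (21.7%) the signed change was larger in emerin-null cells, beside 46.9% of all members, and the median difference was -0.42. At day 0 the median log2 ratio of emerin-null over wildtype levels was -0.07 and at day 1 it was -0.51. Parp14, an interferon-induced enzyme that transfers ADP-ribose, went from 19.3 FPKM to 4.36 in emerin-null and from 19.8 to 8.06 in wildtype cells. Oasl2, an antiviral synthetase-like protein, went from 22.7 to 9.25 FPKM in emerin-null and from 22.5 to 17.5 in wildtype cells. Isg15, a ubiquitin-like modifier, was at 27.6 and 36.4 FPKM in emerin-null and at 28.8 and 73.8 in wildtype cells, where it was called higher. The adjusted p of the difference was 1 for each of these 3.

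Most genes of antigen presentation were lower as well. Of 22 measured genes 13 were lower and 0 higher, beside 7.07% and 9.02% of all tested members. The median of the list was -1.67 in emerin-null and -1.42 in wildtype cells, but 2 of the 22 are single-entry genes and neither was called. Among genes alone at their locus 3 were called lower. Cd74, the invariant chain of class II molecules, went from 95.2 FPKM to 10.6 in emerin-null and from 119 to 16.7 in wildtype cells, and H2-Aa, a class II chain, from 41.5 to 4.33 in emerin-null cells. Psme1, a proteasome activator (-3.80), and Psmb8, Psmb9 and Tap1, which carry 1 common value (-3.51), share their loci. B2m, the common light chain of class I molecules, was at 1309 and 1327 FPKM and did not pass. Macrophage and leukocyte markers summed to 293 FPKM at day 0 and 62.1 at day 1, almost all of it from Fcer1g and Cd68 at shared loci, while Csf1r was at 0.107 and 0.140.

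Of 12 called interferon genes with a promoter window 7 hold an interferon-stimulated element, read as GAAA followed by any 2 bases and a further GAAA, on either strand (58.3% against 3.49% of all windows), as do 2 of 10 called genes of antigen presentation (20%). Gbp7 is shown as the called gene of highest day 0 level with the motif alone at its locus (chr3:142530086-142530385, GRCm38.p6, plus strand, RefSeq). Capitals mark the element, which lies on the opposite strand.
Gbp7: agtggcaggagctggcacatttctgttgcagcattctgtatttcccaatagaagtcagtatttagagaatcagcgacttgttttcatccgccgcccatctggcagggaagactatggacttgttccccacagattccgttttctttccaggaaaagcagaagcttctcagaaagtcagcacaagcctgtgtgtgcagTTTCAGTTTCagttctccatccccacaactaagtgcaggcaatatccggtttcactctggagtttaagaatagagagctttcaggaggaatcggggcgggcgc

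Part of the genes that growth factors induce early were lower at day 1. Of 37 immediate early and ERK feedback genes 9 were lower and 2 higher, with a median of -0.65 in emerin-null and -0.41 in wildtype cells, and the 21 single-entry genes held 6 lower and 0 higher. Besides Egr2, Junb, a subunit of the AP-1 factor, went from 43.3 FPKM to 10.1 in emerin-null and from 40.8 to 13.3 in wildtype cells. Dusp5, a phosphatase that inactivates ERK, went from 13.3 to 1.88 FPKM in emerin-null and from 8.64 to 2.40 in wildtype cells, and Dusp4, its relative, from 15.3 to 5.16 in emerin-null cells. Other large called changes were in Cyr61, a matricellular protein (-2.41), Spry1, an ERK inhibitor that rose (2.40), and Ier2 (-2.39). Met, the receptor of hepatocyte growth factor, fell from 35.9 to 10.0 FPKM, and Hgf, its ligand, from 9.68 to 2.05. They are the 2 lower genes of 21 in the VEGF, FGF, HGF and PDGF list, in which Fgf21 rose. Among all tested members 9.02% were higher and 7.07% lower.

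Signals of the TGF-β family moved in both directions. Of 34 measured genes 6 were lower and 5 higher, beside 7.07% and 9.02% of all tested members. Tgfb1 fell from 23.4 FPKM to 9.68 in emerin-null cells while Tgfb3 rose from 17.3 to 76.0, and the wildtype levels were 20.7 and 11.6 for Tgfb1 and 22.4 and 85.3 for Tgfb3. Smad6, an inhibitor of BMP signals, fell from 7.03 to 0.988 FPKM. In the IGF list 3 of 22 genes were higher, with Foxo3, Igf2r and Pik3r3, and 2 lower, Igfbp4 and Igfbp6. Neither list was tested as a set. Igf2, the growth factor of developing muscle, was at 645 and 1037 FPKM and Igfbp5, its binding protein, at 68.6 and 85.9, and neither passed.

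Genes of the matrix moved in both directions. Of 18 measured collagens 2 were higher and 0 lower, of 29 matrix glycoproteins 3 and 3, and of 24 matrix proteases and inhibitors 3 and 4. Among all tested members 9.02% were higher and 7.07% lower, and no matrix list was tested as a set. Col1a1, a chain of type I collagen, went from 4.97 FPKM to 31.8 in emerin-null cells, a rise of 2.74 (SE at most 0.46, Benjamini-Hochberg adjusted p = 1.78e-07 with the authors' SEs), and from 22.7 to 45.3 in wildtype cells, where it did not pass. The difference of both changes was 1.66 and did not pass (adjusted p = 0.372 with the authors' SEs). Adamts5, a matrix protease, went from 1.74 to 9.50 FPKM in emerin-null and from 8.39 to 15.997 in wildtype cells, and Thbs2, a thrombospondin, from 1.38 to 3.54 in emerin-null and from 12.6 to 9.46 in wildtype cells. All 3 were below the wildtype level at day 0. Spp1, osteopontin, fell from 1150.0 to 243 FPKM in emerin-null cells. Fibroblast markers summed to 1776 FPKM at day 0 and 1137 at day 1, and of 6 measured 1 was higher, Col1a1 itself, and 1 lower, Ly6a.

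Emerin sits among the proteins of the nuclear envelope and lamina. Of 29 measured genes of this list 3 were higher and 1 lower, with a median of -0.20, beside 9.02% higher and 7.07% lower among all tested members. Lmnb1, the B-type lamin, went from 57.1 FPKM to 22.2 in emerin-null and from 49.2 to 14.1 in wildtype cells. In emerin-null cells Lmnb1 fell by 1.27 on the log2 scale (SE at most 0.39, Benjamini-Hochberg adjusted p = 0.0121 with the authors' SEs). Lmna, the A-type lamin that binds emerin, was at 369 and 263 FPKM and did not pass. Syne1, a nesprin, rose by 1.26, and Tmem38a and Ankle1, both at shared loci, by 1.96 and 2.67. Hdac3, a deacetylase whose activity emerin raises, was at 56.3 and 43.9 FPKM and did not pass, and of 22 deacetylases and corepressors only Hdac11 was called, from 4.10 to 20.1. Of 24 Polycomb and heterochromatin genes 7 were lower and 0 higher, 5 of them at shared loci. Hells, a chromatin remodeler, fell from 26.4 to 7.01 FPKM and Cbx2, a Polycomb reader, from 7.62 to 2.80, while Ezh2, the Polycomb methyltransferase, was at 39.5 and 23.3 and did not pass. A list of 9 genes chosen for qPCR had 7 members, of which 2 were called lower and 0 higher. These were Mgst1, a microsomal glutathione transferase (8.005 and 2.22 FPKM), and Prc1, which bundles the spindle midzone (58.1 and 23.8), and neither call held under all alternatives. Prc1 lost its call among genes alone at their locus (adjusted p = 0.0523 with the authors' SEs), and Mgst1 with 1 FPKM added in place of 0.1 (0.0952). Cenph, Bub1, Gstp1 and Mad2l1 were not called.

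Most genes called in emerin-null progenitors were called in wildtype progenitors as well. Of the 1101 members called higher in emerin-null cells, 839 were also called higher in wildtype cells, which is 76.2% of the emerin-null and 90.1% of the wildtype calls among members. Of the 862 lower ones 683 were shared, 79.2% of the emerin-null and 84.8% of the wildtype calls. No gene was called in opposite directions. Both genotypes were tested with the same SE bound. Since each table gives both genotypes the same entry of a gene, a change of entry moves both together, and among single-entry genes the shares of the emerin-null calls were 68.5% and 68.1%. Among the wildtype genes tested 7.65% were higher and 6.62% lower. Of the 581 single-entry genes called in either genotype 391 (67.3%) had the larger absolute change in emerin-null cells. These genes were picked by the same changes, so this share is a description and no test. Over all single-entry genes the median absolute log2 change was 0.478 in emerin-null and 0.455 in wildtype cells.

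In 48 of 56 sarcomere genes (85.7%) the signed change was larger in emerin-null than in wildtype cells, beside 46.9% of all members, and the median difference was 0.46, or 0.50 over the 17 single-entry genes. The median log2 ratio of emerin-null over wildtype levels in this list was -0.46 at day 0 and -0.04 at day 1. For excitation and calcium handling it was -0.41 and -0.10. No sarcomere gene passed the test of the difference, for which Ankrd2 came nearest among single-entry genes with a difference of 1.95 (adjusted p = 1 with the authors' SEs).

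By the test of the difference, the step differed between the genotypes in 7 genes. The difference of both changes was tested in 12388 genes and called in 0.0565% of them. In 3 of these genes the signed change was larger in emerin-null cells (0.0242%) and in 4 it was smaller (0.0323%). Of the genes tested 143 (1.15%) had an unadjusted p below 0.05. The 4 with the smaller signed change, Cacnb2, Gm13315, Camk2b and 2410003K15Rik, are not single-entry genes. Their entries differ between the days or share a locus, as given further below. The 3 with the larger signed change in emerin-null cells are single-entry genes. Ptprf, a receptor tyrosine phosphatase of cell adhesion (chromosome 4, from 118208213 to 118291405), went from 2.05 FPKM to 12.1 in emerin-null and from 17.8 to 19.3 in wildtype cells. The emerin-null level was thus low at day 0 and approached the wildtype level at day 1, a difference of 2.39 on the log2 scale (SE 0.46, Benjamini-Hochberg adjusted p = 0.00101 with the authors' SEs). Capn6, a calpain without protease activity that steadies microtubules (chromosome X, from 143802231 to 143827414), went from 2.70 to 15.5 FPKM in emerin-null and from 5.01 to 5.18 in wildtype cells. It crossed from below to above the wildtype level, a difference of 2.43 (SE 0.47, Benjamini-Hochberg adjusted p = 0.00101 with the authors' SEs). Ptn, the secreted growth factor pleiotrophin (chromosome 6, from 36714929 to 36810220), was at 8.32 and 11.5 FPKM in emerin-null cells, where it was not called, and at 18.4 and 6.18 in wildtype cells, where it fell. The difference was 2.03 (SE 0.48, Benjamini-Hochberg adjusted p = 0.0449 with the authors' SEs). None of the 3 passed with 1 FPKM added in place of 0.1.

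**Figure D3:**
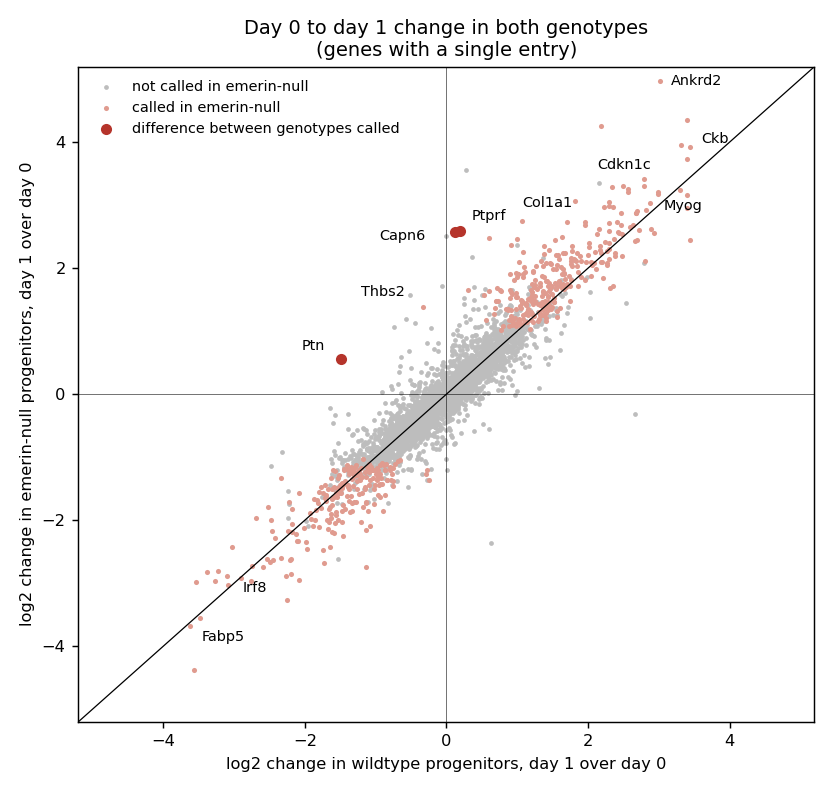
Log2 change of day 1 over day 0 in wildtype (horizontal) and emerin-null (vertical) progenitors, 1 point per single-entry gene, with the line of equal change. Genes called in emerin-null cells are pink, and the 3 genes whose difference was called are large and red: Ptprf and Capn6 lie near 0 in wildtype and at 2.60 and 2.57 in emerin-null cells, and Ptn lies at -1.48 and 0.56.

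Levels at the other stages place this step. The values that follow are FPKM at all 6 stages after scaling each stage to day 0 by the median ratio, and they carry no test. Cdkn1c in emerin-null cells went from 244 while proliferating over 127 (day 0), 1244 (day 1) and 1037 (day 2) to 179 (day 4), and its highest wildtype level was 196 on day 2. Ckb was highest at day 1 in emerin-null cells (304) and at day 2 in wildtype cells (257). Hmgcs1 was highest at day 1 in both (99.1 and 94.3). Mef2c was at 242 and 247 at day 4. Id1 was at 9.51 in emerin-null and 5.83 in wildtype cells at day 2, and Irf8 at 0.711 and 0.837. Ptprf in emerin-null cells was below wildtype while proliferating (4.36 against 22.3) and reached 26.7 against 28.0 at day 2. Capn6 reached 40.5 in emerin-null against 6.61 in wildtype cells at day 3. Ptn was alike in both genotypes while proliferating (7.72 and 8.02) and above wildtype in emerin-null cells from day 1 on.

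**Figure D4:**
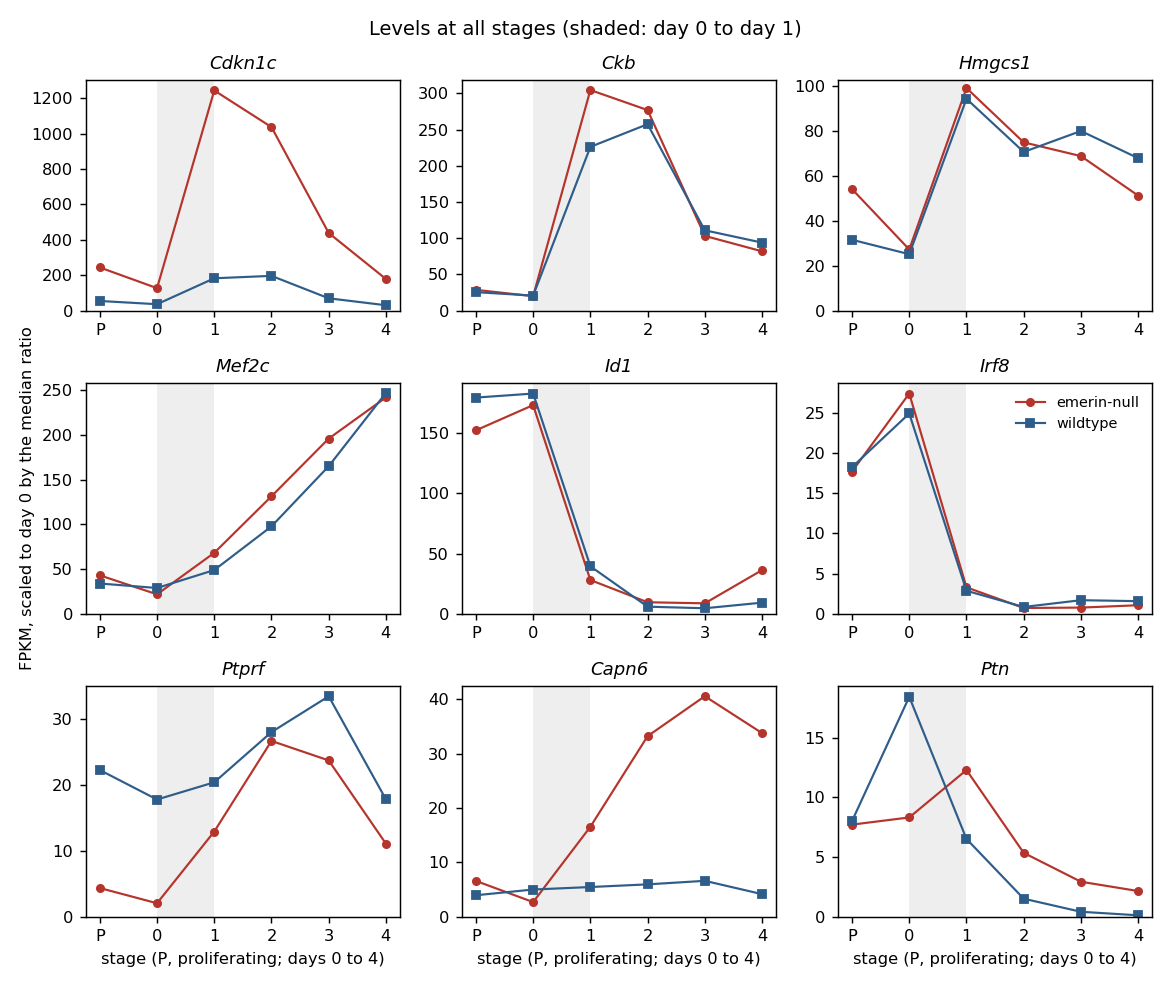
FPKM of 9 genes in emerin-null (red circles) and wildtype (blue squares) progenitors while proliferating (P) and at days 0 to 4, each stage scaled to day 0 by the median ratio, with 1 value per genotype and stage and hence no error bars. The shaded band is the step from day 0 to day 1, in which Cdkn1c, Ckb and Hmgcs1 climb, Id1 and Irf8 drop in both genotypes, and Ptprf nears its wildtype level while Capn6 and Ptn cross theirs.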

How the data were processed

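RNA of 12 samples (2 genotypes at 6 stages, 3 plates each) was sequenced on an Illumina HiScan-SQ. According to the study's methods and the submitters' processing notes, the authors checked reads with FastQC, mapped them to mm10 with TopHat and compared genotypes with Cuffdiff. For these tools no version is given in the sources used here. The deposited tables, 1 per stage, hold FPKM values of wildtype and emerin-null cells, normalized by the authors within each table, and the authors' log2 fold, test statistic, p, q and call. A second sheet repeats the called entries. The authors' folds, p, q and calls were not used. The unit FPKM was read from the table layout. The tables hold no read counts, so the depth per sample is unknown and no count model was fitted.

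For each gene the entry (an assembled gene under its name) with status OK and the largest summed FPKM stood for it. The emerin-null day 1 and day 0 values were scaled by the median ratio (log2 shift -0.09), 0.1 was added, and genes below 1 FPKM at both stages were left out. The SE of the authors' genotype fold is the absolute log2 fold divided by the deposited test statistic. The SEs of both stages, combined as the root of summed squares, bound the SE of the emerin-null change from above and give the SE of the difference between genotypes. A normal test (2-sided) was run on both, p-values were adjusted by Benjamini-Hochberg across every gene with an SE, and calls were made at 0.05 and 1.5-fold, the study's thresholds. This is a model-based test on SEs from the authors' fit across genes, not an exact test. Of the members 42 had no SE. The p-values rest on the spread among plates only as far as Cuffdiff carried it. Genes written as dates (21 in each table) have no name and were left out.

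Gene lists (45, 7 of them cell type markers) and the members were chosen with earlier results of these data known. The rule for named genes took the 12 largest rises and falls among called genes alone at their locus with 5 FPKM or more, up to 4 called genes per list, all differences and 45 fixed genes. Of the 24 genes it named for the step 0 are single-entry genes, so the 12 largest rises and falls among single-entry genes are described in their place. Of the fixed genes 40 were members. Pparg, Cyp1a1, Myh3 and Id2 had no tested entry at day 1. Some genes of the lists are not reported here. Coordinates are from GENCODE M21 (GRCm38) and promoter windows from RefSeq (GRCm38.p6). The test was tried on simulated data. Python 3.11.15, numpy 2.4.6, pandas 2.3.3 and scipy 1.17.1 were used. Alternatives changed the scaling, the entry, the genes counted, the 0.1 added, the FPKM minimum, high values and the threshold.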

Additional observations from a re-analysis of the deposited data

Results flagged for a closer look

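In 7 genes the change from day 0 to day 1 differed between emerin-null and wildtype progenitors by the test of the difference itself. Ptprf (2.39 on the log2 scale), Capn6 (2.43) and Ptn (2.03) had the larger signed change in emerin-null cells and are single-entry genes. In size, the change of Ptn was larger in wildtype cells, where it fell. Cacnb2, a calcium channel subunit (-4.18), and Gm13315 (-3.87) had the smaller signed change, as their emerin-null level fell. Both took their day 0 emerin-null level of 138 FPKM from 1 common entry at a locus that other entries put at 1.92 to 11.7 FPKM, and the entry is not listed at day 1. Camk2b, a calcium-dependent kinase, had a difference of -3.74, with 10.4 and 2.58 FPKM in emerin-null and 1.34 and 4.82 in wildtype cells. Camk2b has a second entry at each stage, and the one of larger summed level was taken. The entry taken at day 0 was higher in emerin-null cells and the one taken at day 1 was higher in wildtype cells. The entries not taken had the opposite order, with 1.44 FPKM in emerin-null against 3.51 in wildtype cells at day 0. At day 1 these were 5.33 and 0.296. Whether the same entry was compared on both days was not tested. 2410003K15Rik had a difference of -2.48 and shares its day 0 locus with another gene.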

How the results depend on the processing

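The alternatives were run on a subset of the named single genes, and many genes named from the lists were not in it. In this subset all values kept their direction, and 706 of 726 values kept their side of the threshold too. Whether the calls of the other named genes depend on the processing was not tested. Counts of calls depended mainly on which genes were counted. Among genes alone at their locus 990 were 2-fold higher and 881 lower, 521 were called higher and 399 lower, and 2 differences were called lower. Among genes whose entries overlap by at least 80% these counts were 1116 and 929, 602 and 412, and 1. With single-entry genes alone, an alternative chosen after seeing the data, they were 436 and 374, 281 and 196, and 0. Fewer genes were counted in these settings, and the share called was lower too, at 13.3% of single-entry genes against 16.1% of all tested in the fit over all genes. The cause of the lower share was not tested. With 1 FPKM added in place of 0.1, 0 differences were called higher and 1 lower, and at an adjusted p below 0.01 the calls of lower genes fell to 570. The share of higher genes among the calls was 56.1% and ranged from 49.9% without scaling to 59.4%. Of 990 list counts 820 stayed within 1.5 times the main count and 170 moved. No replicate could be left out, because the tables hold 1 value per genotype and stage, and FPKM without counts give no depth.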

Other observations

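Of 37 measured glutathione and redox genes 6 were lower and 1 higher at day 1 in emerin-null progenitors, beside 7.07% and 9.02% of all tested members. Nqo1, a quinone reductase, went from 46.2 to 7.10 FPKM in emerin-null and from 38.6 to 7.18 in wildtype cells, and Gclm and Srxn1, which serve glutathione synthesis and peroxiredoxin repair, from 13.9 to 3.11 and from 19.5 to 4.50 in emerin-null cells. Outside the lists, and picked after their values were seen, Ftl1, the ferritin light chain, went from 849 to 143 FPKM in emerin-null and from 717 to 203 in wildtype cells, and Mt2, a metallothionein, from 69.0 to 10.1 in emerin-null cells. Txnrd1, thioredoxin reductase, fell by 1.19 at a shared locus.

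Of 16 genes of fatty acid synthesis 3 were higher and 0 lower, among them Scd1, a desaturase (14.3 and 45.6 FPKM), and Lpin1, a phosphatidate phosphatase (1.33 and 8.10). Of 30 tRNA synthetase and amino acid response genes 2 were higher and 3 lower. Cars rose from 33.8 to 98.2 FPKM while Wars, the interferon-induced tryptophan synthetase, fell from 92.6 to 22.9. Of 34 ribosome biogenesis genes 3 were higher and 0 lower, with a median of -0.37, of 29 chaperones 0 and 2, of 30 JAK-STAT genes 1 and 1, of 18 Notch genes 0 and 1, and of 28 YAP and Hippo genes 2 and 2. Of 13 integrins 0 were higher and 1 lower, and of 14 housekeeping genes 1 and 1. Among all tested members 9.02% were higher and 7.07% lower. Of 5 measured neural markers 0 were higher and 2 lower, Nefl and Nefm. Neural markers summed to 196 FPKM at day 0 and 72.1 at day 1, of which Syn1 alone gave 142 and 53.6. Of 2 measured adipocyte markers both were lower.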
